A study of Homo sapiens with 3 samples.

Results

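Amino acid transporters were examined in 3 cultures of a human hepatocellular carcinoma (HCC) line, as the genes of the SLC1, SLC3, SLC6, SLC7, SLC36, SLC38 and SLC43 families. Their members were chosen by gene symbol alone, and the rule found 39 of the 16149 genes listed in at least 1 library. The parental line is HCCLM3 by its label and, by the methods of the study, HCCLM3-R, a derivative that carries red fluorescent protein and from which both subclones descend. The parent is labelled as low in metastasis ability, although the methods call HCCLM3-R highly metastatic. Subclone 1 is labelled as more metastatic with specificity for the lung, and subclone 2 as spreading to the lung and the celiac lymph node alike. The monoclonal lines of the study were grown from single cells of lung or lymph node metastases in nude mice, so that each subclone stands for 1 clone, and its clone name is not given in the sources used here. Cells of all 3 lines were cultured in DMEM, and 1 library of total RNA was sequenced from each line. With 1 library per line no difference between the lines could be tested, and intervals in this section cover counting error only.

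Many amino acid transporters of the plasma membrane couple the entry of one amino acid to sodium, chloride, protons, or the exit of another amino acid, and others let their substrates pass without such coupling. Several of them work as pairs, in which a heavy chain of the SLC3 family carries a light chain of the SLC7 family to the membrane. Hepatocytes use them for nitrogen and glutathione metabolism, and proliferating tumor cells depend on them for glutamine, leucine and cystine. When amino acids run short, the transcription factor ATF4 raises the transcription of many of these genes.

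Levels are given in RPKM, reads per kilobase of gene scaled to a fixed library size. Depth, as recovered from the RPKM values themselves, was lowest for the parent at 4488825 reads, against 4609696 and 4725150 reads for subclones 1 and 2. Markers of liver epithelium were present, with KRT8 at 1614 to 1742 RPKM and HNF4A at 11.7 to 16.0 RPKM. ALB, which encodes albumin, was at 2.46 RPKM in the parent, 49.5 RPKM in subclone 1 and 68.8 RPKM in subclone 2. In contrast, SERPINA1 and TTR were at or under 0.45 RPKM in every library. Of 11 hepatocyte markers, 8 had a mean of at least 1 RPKM. At least 2-fold above the parent were 4 of these in subclone 1 and 3 in subclone 2, and 0 were lower. Subclone 2 over subclone 1 went both ways, with 1 marker at least 2-fold higher and 2 lower. In the order parent, subclone 1 and subclone 2, TF was at 5.71, 30.3 and 5.88 RPKM. FGB was at 1.66, 14.5 and 5.6 RPKM. APOB had ratios over the parent of 4.10 and 13.9. The summed RPKM of 7 fibroblast markers, 6 of them listed, was 15.7 in the parent against 31.2 and 24.3 in subclones 1 and 2, while COL1A1 and COL1A2 stayed at or under 0.40. LUM made up most of that sum, at 10.1, 24.0 and 21.0 RPKM, whereas COL3A1 of the same list went the other way, at 4.42, 2.21 and 0.463 RPKM. That of 4 endothelial markers was 4.74, 11.8 and 7.56, with VWF and CDH5 at or under 0.05. PECAM1, at 3.33, 9.81 and 4.46 RPKM, and KDR, at 1.36, 1.93 and 3.08 RPKM, made up nearly all of it. The summed RPKM of 5 leukocyte markers, 4 of them listed, was 0.847, 2.14 and 1.31, with PTPRC at or under 0.08. Most of it came from ITGAM, at 0.516, 1.10 and 1.20 RPKM, and CD14, at 0.134, 1.04 and 0 RPKM. The part of these genes in the differences given here was not tested. In a culture, fewer cells that transcribe a gene and less of its RNA per cell cannot be told apart.

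Of the 39 genes, 37 were listed in the parent, 35 in subclone 1, 36 in subclone 2 and 34 in every library. A mean level of at least 1 RPKM over the libraries was reached by 28, and the other 11 are described at the end of the transporter groups. Together the 39 genes summed to 901 RPKM in the parent, 869 RPKM in subclone 1 and 938 RPKM in subclone 2, and the 8 with the highest mean level made up 80.2% to 81.9% of that sum. Those 8 were SLC6A8, SLC1A5, SLC38A2, SLC3A2, SLC38A1, SLC7A5, SLC6A6 and SLC7A11. In the parent SLC1A5 ranked first at 145 RPKM, followed by SLC38A2 at 127 RPKM. Their intervals did not meet, whereas SLC38A1, SLC3A2 and SLC6A8, next in order at 96.8, 96.5 and 95.7 RPKM, could not be ordered at this depth. In both subclones SLC6A8 ranked first, ahead of SLC1A5 and then SLC38A2, and the intervals of these 3 did not meet.

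**Figure D1:**
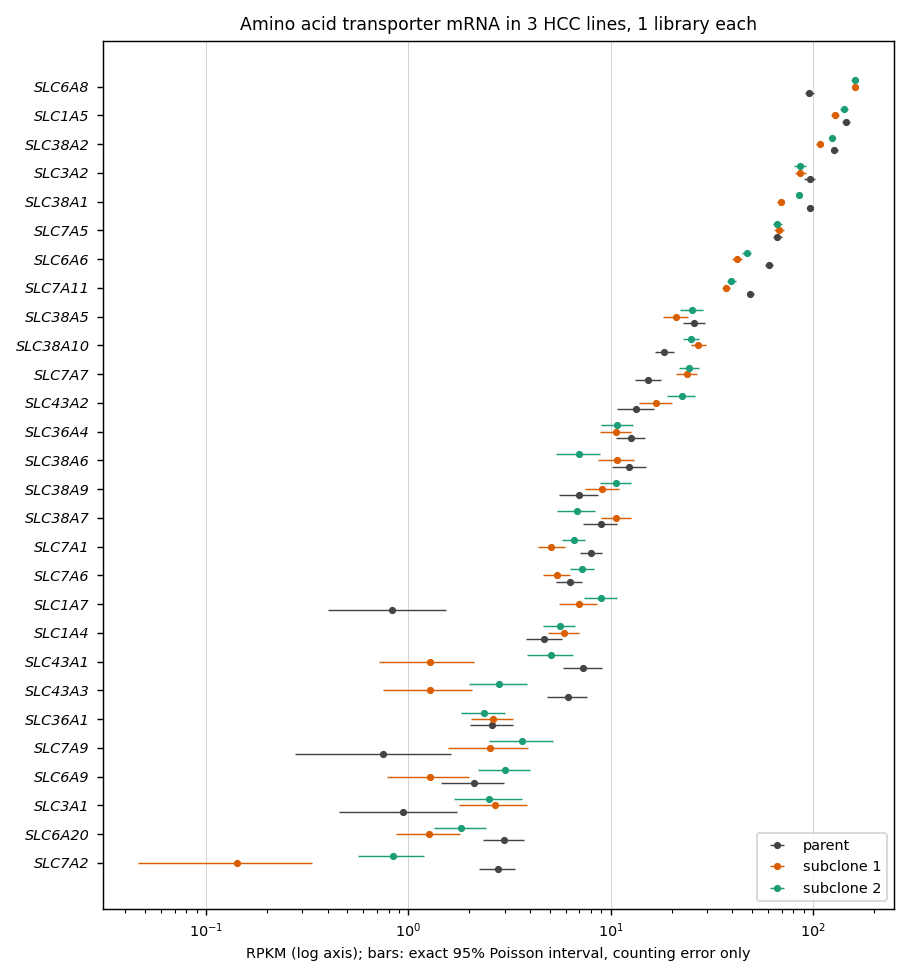
Levels of the 28 transporter genes with a mean of at least 1 RPKM, in RPKM on a log axis, 1 point for each library with its exact 95% Poisson interval. The 3 libraries lie close together for most abundant genes, and the widest gaps are at SLC1A7 (0.832 RPKM in the parent and 8.93 in subclone 2) and SLC7A2 (2.76 in the parent and 0.143 in subclone 1).

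In subclone 1 against the parent, 3 of the 28 passed 2-fold upwards on the scale of log2(RPKM + 0.1), beside 4.9% of the 11370 genes at this level. They were SLC1A7, SLC7A9 and SLC3A1. At least 2-fold lower were 4 genes, SLC7A2, SLC43A1, SLC43A3 and SLC6A20, beside 1.82% of all. Small differences between abundant genes also exceeded counting error. The exact interval of the RPKM ratio lay above 1 for 6 of the 28 genes (all genes with reads, 19.7%) and below 1 for 12 (all genes, 18.9%). The median log2 ratio was -0.19 over the 28 genes and 0.00 over all 11370 genes.

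In subclone 2 against the parent, the same symbols SLC1A7, SLC7A9 and SLC3A1 made up the 3 genes at least 2-fold higher, beside 5.33% of all genes. SLC7A2 and SLC43A3 were the 2 genes at least 2-fold lower, beside 2.16% of all, and 1 was with a pseudocount of 1. Among genes with a mean of at least 5 RPKM, 1 gene was higher and 0 lower in either subclone over the parent. The interval of the ratio lay above 1 for 8 of the 28 (all genes, 22.6%) and below 1 for 10 (all genes, 17.8%). The median log2 ratio was -0.04 over the 28 genes and 0.04 over all. Both comparisons share the parent library, so their likeness is no independent evidence.

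Between the subclones, 4 of the 28 had at least 2-fold more in subclone 2, namely SLC7A2, SLC43A1, SLC6A9 and SLC43A3, beside 1.42% of all genes. This count was 1 with a pseudocount of 1 and 0 among genes with a mean of at least 5 RPKM. None was at least 2-fold lower, beside 1.39% of all. By counting interval, 11 genes lay above 1 (all genes, 11.5%) and 2 below 1 (all genes, 8.34%). The median log2 ratio was 0.18 over the 28 genes against 0.03 over all genes. An interval without 1 between the subclones, with log2 ratios over the parent of opposite sign, was found for 3 of the 28, SLC38A7, SLC6A9 and SLC7A6, beside 6.36% of all genes with reads.

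**Figure D2:**
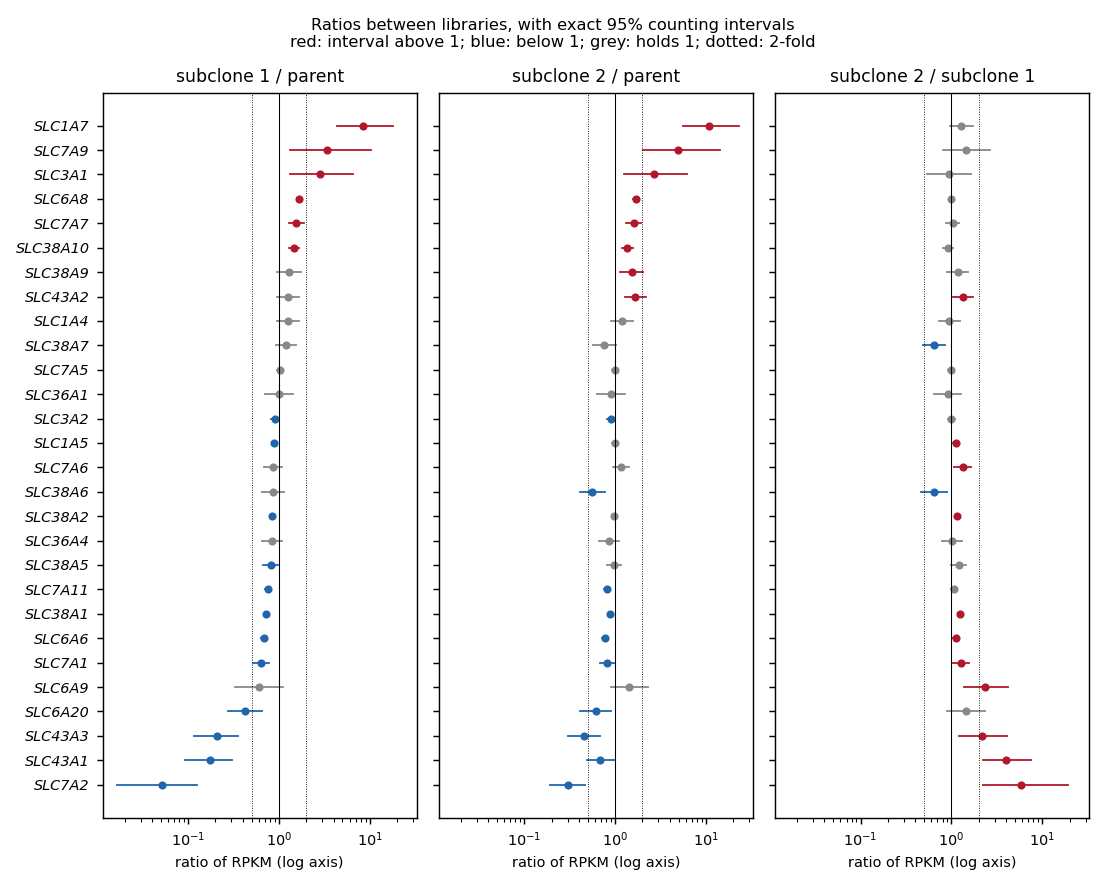
Ratios of RPKM between 2 libraries for the 28 transporter genes, on log axes, with exact 95% counting intervals, in red above 1, in blue below 1 and in grey where the interval holds 1. SLC1A7, SLC7A9 and SLC3A1 are highest in both subclones over the parent, and SLC7A2 is lowest, at 0.0518 in subclone 1 and 0.303 in subclone 2.

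The heavy chain SLC3A2 (Entrez gene 6520), known as CD98hc or 4F2hc, takes light chains to the membrane. It was at 96.5 RPKM in the parent (1018 reads), 86.6 RPKM in subclone 1 (938 reads) and 86.2 RPKM in subclone 2 (957 reads). Both subclones lay slightly under the parent, with ratios of 0.897 (0.820 to 0.981) and 0.893 (0.817 to 0.976). They could not be told from each other, the ratio of subclone 2 to subclone 1 being 0.995 (0.909 to 1.09).

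Its light chain SLC7A5 (LAT1), the exchanger that brings leucine and other large neutral amino acids in for glutamine, varied least of the 28 genes over the 3 comparisons. Its level was 66.7 RPKM in the parent, 68.0 RPKM in subclone 1 and 66.7 RPKM in subclone 2, from 1361, 1424 and 1432 reads. The ratio over the parent was 1.02 (0.945 to 1.10) in subclone 1 and 1.00 (0.927 to 1.08) in subclone 2. SLC7A11 (xCT), which imports cystine in exchange for glutamate and thereby feeds glutathione synthesis, was lower in the subclones. It went from 49.0 RPKM in the parent to 37.2 RPKM in subclone 1 and 39.5 RPKM in subclone 2, from 2122, 1656 and 1803 reads. The ratios over the parent were 0.760 (0.712 to 0.811) and 0.807 (0.758 to 0.860), and the interval between the subclones held 1 (0.993 to 1.14).

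SLC7A7 (y+LAT1), which exports cationic amino acids in exchange for neutral ones and sodium, went the other way. Its level was 15.3 RPKM in the parent, 23.7 RPKM in subclone 1 and 24.5 RPKM in subclone 2. The ratios over the parent were 1.55 (1.28 to 1.88) and 1.60 (1.32 to 1.94), so that both subclones lay above the parent and could not be told from each other. SLC7A6 (y+LAT2), of similar exchange function, was at 6.27 RPKM in the parent, 5.42 RPKM in subclone 1 and 7.22 RPKM in subclone 2. Only the ratio between the subclones, 1.33 (1.08 to 1.64), had an interval without 1. SLC7A8 (LAT2) stayed at or under 0.421 RPKM, from 4, 3 and 3 reads. The 5 light chains that bind SLC3A2 thus summed to 138 RPKM in the parent, 135 RPKM in subclone 1 and 138 RPKM in subclone 2, or 1.43, 1.56 and 1.60 times the heavy chain. Within that sum the share of SLC7A5 was 48.5%, 50.5% and 48.2%. That of SLC7A11 was 35.6% in the parent against 27.6% and 28.6% in the subclones, while SLC7A7 took 11.1% in the parent against 17.6% and 17.7%.

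The second heavy chain, SLC3A1 (rBAT, Entrez gene 6519), pairs with the light chain SLC7A9 (Entrez gene 11136) to take up cystine and cationic amino acids in kidney and intestine, and defects of either gene cause cystinuria. SLC3A1 was at 0.947 RPKM in the parent (10 reads), 2.67 RPKM in subclone 1 (29 reads) and 2.52 RPKM in subclone 2 (28 reads). SLC7A9 was at 0.747 RPKM (6 reads), 2.55 RPKM (21 reads) and 3.67 RPKM (31 reads) in the same order. Both chains were thus lowest in the parent, and within each library their levels differed by less than their intervals. For SLC3A1 the ratio over the parent was 2.82 (1.34 to 6.50) in subclone 1 and 2.66 (1.25 to 6.14) in subclone 2. For SLC7A9 it was 3.41 (1.33 to 10.3) and 4.91 (2.02 to 14.4). The wide intervals come from the few reads of the parent. SLC3A2 remained 32.4 to 34.2 times as abundant as SLC3A1 in the subclones, against 102 times in the parent.

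**Figure D3:**
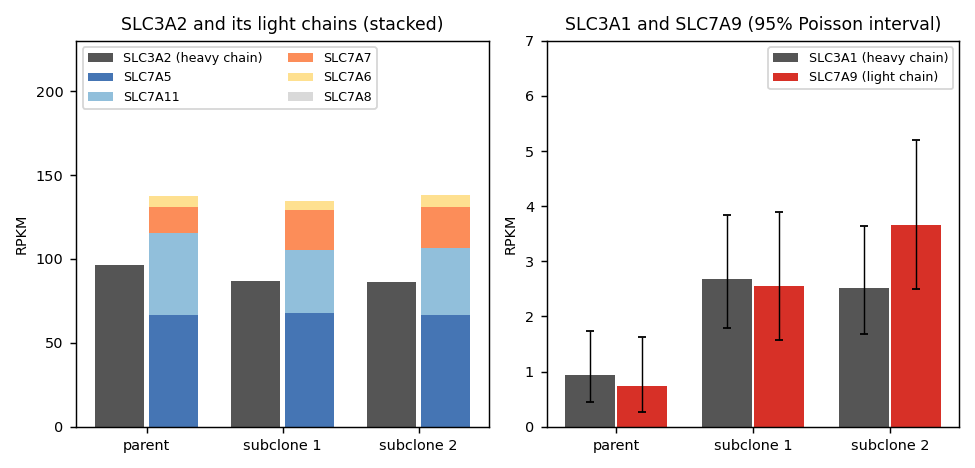
Heavy and light chains in RPKM, as bars for each library. On the left, SLC3A2 stands beside the stack of its light chains, which totals 138, 135 and 138 RPKM. On the right, SLC3A1 and SLC7A9 are drawn with exact 95% Poisson intervals, both under 1 RPKM in the parent and above 2.5 RPKM in the subclones.

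The 200 bases before the start of SLC7A9 are shown with those of SLC1A7, because these were the 2 transporter genes with the highest ratios over the parent in both subclones. They are RefSeq sequence of GRCh38.p14, whereas the deposited values rest on hg19. The SLC7A9 stretch is chr19:32869768-32869967 on the minus strand and the SLC1A7 stretch chr1:53142639-53142838 on the minus strand. Neither holds the letters TGATGNAA on either strand, the core of the element through which ATF4 acts, for which capitals are used further down.
SLC7A9: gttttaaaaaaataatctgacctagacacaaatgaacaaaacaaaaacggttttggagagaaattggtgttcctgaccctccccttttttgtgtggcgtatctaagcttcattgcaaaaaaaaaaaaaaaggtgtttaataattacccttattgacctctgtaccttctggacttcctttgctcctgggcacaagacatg
SLC1A7: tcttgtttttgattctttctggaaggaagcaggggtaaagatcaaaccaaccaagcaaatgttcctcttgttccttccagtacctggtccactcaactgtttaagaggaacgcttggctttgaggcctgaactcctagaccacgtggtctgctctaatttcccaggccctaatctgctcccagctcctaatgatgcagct

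SLC1A7 (Entrez gene 6512), a glutamate transporter with a chloride conductance that is best known from the retina, had the largest ratios over the parent among genes higher in the subclones. It was at 0.832 RPKM in the parent (10 reads), 6.97 RPKM in subclone 1 (86 reads) and 8.93 RPKM in subclone 2 (113 reads). The parent was far below both subclones, whose intervals overlapped. The ratio over the parent was 8.37 (4.34 to 18.1) in subclone 1 and 10.7 (5.63 to 23.0) in subclone 2, with log2 ratios of 2.92 and 3.28 that stood at percentile 99.6 of all genes in either comparison. Between the subclones the ratio was 1.28 (0.960 to 1.72). Of its neighbours on chromosome 1 with a mean of at least 1 RPKM, CPT2 on one side had log2 ratios of -0.06 and 0.40 and SCP2 on the other 0.48 and 0.62. The other glutamate transporters were scarce: SLC1A2 was at 0.204, 0.451 and 0.493 RPKM from 11, 25 and 28 reads, and SLC1A1 had 1 read in the parent and 0 in the subclones, which allows up to 0.350 and 0.341 RPKM there. Such limits hold only if a 0 is a count of reads and not a failed estimate. SLC1A3 was not among the genes that the rule found, so no level is given for it.

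The neutral amino acid exchangers of the same family behaved more evenly. SLC1A5 (ASCT2, Entrez gene 6510), a main route of glutamine into tumor cells, was at 145 RPKM in the parent, 129 RPKM in subclone 1 and 143 RPKM in subclone 2. Subclone 1 was the lowest, with a ratio to the parent of 0.887 (0.830 to 0.948), and subclone 2 could not be told from the parent at 0.986 (0.924 to 1.05). SLC1A4 (ASCT1), which exchanges serine and alanine, was at 4.69 RPKM, 5.88 RPKM and 5.60 RPKM, with intervals of both ratios over the parent that held 1. The level of SLC1A5 was at percentile 96.4 of the 11370 genes in the parent and that of SLC1A4 at percentile 27.7.

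SLC7A2 (CAT2, Entrez gene 6542), a carrier of arginine and other cationic amino acids that is well expressed in liver, showed the largest deficit. It was at 2.76 RPKM in the parent (94 reads), 0.143 RPKM in subclone 1 (5 reads) and 0.837 RPKM in subclone 2 (30 reads), and the 3 intervals did not overlap. The ratio over the parent was 0.0518 (0.0164 to 0.125) in subclone 1 and 0.303 (0.194 to 0.462) in subclone 2, and subclone 2 exceeded subclone 1 by 5.85-fold (2.25 to 19.3). The nearest genes with a mean of at least 1 RPKM on chromosome 8, VPS37A and MTUS1, had log2 ratios over the parent of 0.00 and 0.40 in subclone 1 and of 0.16 and 0.65 in subclone 2. SLC7A1 (CAT1), the widely expressed carrier of the same substrates, was the more abundant in every library. It was at 8.02 RPKM, 5.10 RPKM and 6.56 RPKM from 265, 173 and 228 reads. Its order was that of SLC7A2, parent over subclone 2 over subclone 1, with smaller steps: the ratio over the parent was 0.636 (0.522 to 0.773) in subclone 1 and 0.817 (0.682 to 0.979) in subclone 2.

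The SLC38 family of sodium-coupled neutral amino acid transporters held the largest share of the summed RPKM, 33.1% in the parent against 29.4% and 30.4% in subclones 1 and 2. SLC38A2 (SNAT2), a carrier of alanine and glutamine that adapts to amino acid supply, was at 127 RPKM in the parent, 108 RPKM in subclone 1 and 124 RPKM in subclone 2, from 2838, 2464 and 2910 reads. SLC38A1 (SNAT1), also a glutamine carrier, was at 96.8 RPKM, 69.2 RPKM and 85.5 RPKM from 3686, 2708 and 3430 reads. Both genes were lowest in subclone 1, where the ratios to the parent were 0.845 (0.801 to 0.893) for SLC38A2 and 0.715 (0.681 to 0.752) for SLC38A1. In subclone 2 SLC38A1 was at 0.884 of the parent (0.844 to 0.926), while SLC38A2 at 0.974 (0.925 to 1.03) could not be told from it. The 2 genes are direct neighbours on chromosome 12 in the RefSeq gene table.

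SLC38A5 (SNAT5), a carrier of glutamine, asparagine and histidine, was at 25.9 RPKM, 21.0 RPKM and 25.2 RPKM, again lowest in subclone 1 with a ratio of 0.811 (0.667 to 0.985). SLC38A10, of less defined function, was higher in the subclones, at 27.1 RPKM in subclone 1 against 18.4 RPKM in the parent, with ratios of 1.47 (1.28 to 1.68) and 1.36 (1.18 to 1.56). SLC38A9, the lysosomal arginine sensor that signals to mTORC1, was at 6.98 RPKM in the parent, 9.09 RPKM in subclone 1 and 10.6 RPKM in subclone 2. Only subclone 2 exceeded the parent beyond counting error, by 1.52-fold (1.14 to 2.04). SLC38A6 was lowest in subclone 2, at 6.96 RPKM against 12.4 RPKM in the parent and 10.7 RPKM in subclone 1, with a ratio over the parent of 0.563 (0.407 to 0.774). SLC38A7, a lysosomal glutamine exporter, was at 8.92 RPKM in the parent, 10.6 RPKM in subclone 1 and 6.79 RPKM in subclone 2. Neither subclone could be told from the parent, but subclone 2 was lower than subclone 1 at 0.638 (0.483 to 0.840). SLC38A3 was not among the genes that the rule found, so it has no level here.

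Of the proton-coupled carriers, which serve mainly to export amino acids from lysosomes or take up small ones, SLC36A4 was at 12.6 RPKM, 10.6 RPKM and 10.8 RPKM and SLC36A1 at 2.60 RPKM, 2.61 RPKM and 2.36 RPKM. No ratio of either had an interval without 1. These intervals were between 0.656 and 1.31 for SLC36A4 and between 0.636 and 1.42 for SLC36A1 over the 3 comparisons, so that differences within those limits were not detectable.

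The SLC43 family held a marked difference between libraries. SLC43A1 (LAT3, Entrez gene 8501), which lets branched-chain amino acids and phenylalanine pass without coupling to an ion, was at 7.32 RPKM in the parent (84 reads), 1.27 RPKM in subclone 1 (15 reads) and 5.05 RPKM in subclone 2 (61 reads). Subclone 1 stood far below the other libraries, with a ratio of 0.174 to the parent (0.0932 to 0.303), and subclone 2 was at 0.690 of the parent (0.488 to 0.971). Subclone 2 exceeded subclone 1 by 3.97-fold (2.23 to 7.52). SLC43A3 (Entrez gene 29015), described as a carrier of purine bases despite its family, was at 6.14 RPKM in the parent (79 reads), 1.29 RPKM in subclone 1 (17 reads) and 2.81 RPKM in subclone 2 (38 reads). Its order was the same, with ratios over the parent of 0.210 (0.116 to 0.357) and 0.457 (0.302 to 0.681) and a ratio between the subclones of 2.18 (1.20 to 4.12).

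The 2 genes lie beside each other on chromosome 11 in the RefSeq gene table of GRCh38.p14, with 1 coding gene, RTN4RL2, between them. None of the nearest genes with a mean of at least 1 RPKM was beyond 2-fold. On the side of SLC43A3, SSRP1 had log2 ratios over the parent of -0.19 in subclone 1 and -0.11 in subclone 2. On the side of SLC43A1, TIMM10 was also lower, at -0.54 and -0.22, and UBE2L6 after it had 0.81 and 0.61. The log2 ratios of SLC43A1 were -2.43 and -0.53 and those of SLC43A3 -2.17 and -1.10. SLC43A2 (LAT4), which has the substrates of SLC43A1 and lies on another chromosome, went in the opposite direction. It was at 13.4 RPKM in the parent, 16.8 RPKM in subclone 1 and 22.4 RPKM in subclone 2. The ratio over the parent was 1.25 (0.944 to 1.67) in subclone 1 and 1.67 (1.28 to 2.19) in subclone 2. Its reads, recovered as 91, 117 and 160, may be understated, so these intervals may be too wide.

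**Figure D4:**
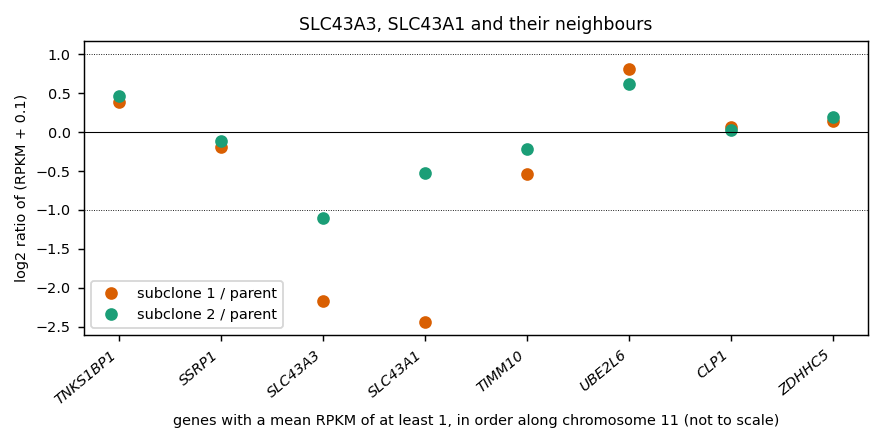
Log2 ratios of (RPKM + 0.1) over the parent for SLC43A3, SLC43A1 and the nearest genes with a mean of at least 1 RPKM, in their order along chromosome 11, with equal spacing. SLC43A3 and SLC43A1 lie below the dotted 2-fold line in subclone 1, and SLC43A3 also in subclone 2, while the genes shown on either side lie between the dotted lines.

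Among the SLC6 genes, whose products couple their substrate to sodium and chloride, the most abundant carry compounds that are not built into protein. SLC6A8 (Entrez gene 6535), the creatine transporter, was at 95.7 RPKM in the parent, 161 RPKM in subclone 1 and 160 RPKM in subclone 2, from 1538, 2663 and 2714 reads. Both subclones were above the parent, by 1.69-fold (1.58 to 1.80) and 1.68-fold (1.57 to 1.79), and could not be told from each other at 0.994 (0.942 to 1.05). SLC6A6 (TauT), the taurine transporter, was lower in the subclones, at 42.0 RPKM and 46.9 RPKM against 60.9 RPKM in the parent. Its ratios were 0.691 (0.642 to 0.743) and 0.771 (0.719 to 0.827), and subclone 2 was above subclone 1 by 1.12-fold (1.03 to 1.20). Of the SLC6 genes, SLC6A8 and SLC6A6 were the pair with the most reads, and they moved in opposite directions.

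SLC6A20 (SIT1), a transporter of proline and other imino acids, was at 2.98 RPKM in the parent (73 reads), 1.27 RPKM in subclone 1 (32 reads) and 1.82 RPKM in subclone 2 (47 reads). The parent was the highest, with ratios of 0.427 (0.273 to 0.655) and 0.612 (0.415 to 0.894) for the subclones. Of its neighbours on chromosome 3 with a mean of at least 1 RPKM, SACM1L on one side had log2 ratios of -0.41 and -0.27. LZTFL1 on the other side had -0.72 and -0.48. The 8 nearest ranged from TMEM158 at -1.31 and -1.57 to CCRL2 at 0.32 and 0.81. Among these neighbours TMEM158 alone was beyond 2-fold, and their directions were not set against all genes. SLC6A9 (GlyT1), a glycine transporter, was at 2.11 RPKM in the parent, 1.29 RPKM in subclone 1 and 3.01 RPKM in subclone 2, from 32, 20 and 48 reads. Neither subclone could be told from the parent, but subclone 2 exceeded subclone 1 by 2.34-fold (1.36 to 4.16).

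The 11 genes with a mean under 1 RPKM were SLC1A1, SLC1A2, SLC6A12, SLC6A14, SLC6A15, SLC6A16, SLC7A8, SLC7A14, SLC36A2, SLC38A4 and SLC38A11. SLC38A4 (SNAT4), a carrier of the normal hepatocyte, had 1 read in the parent and 0 in the subclones, which allows up to 0.164 and 0.160 RPKM there. SLC36A2 had 5, 2 and 0 reads, and 0 reads in subclone 2 allow up to 0.185 RPKM. SLC6A14 and SLC6A15 had 1 read each in subclone 2 and 0 elsewhere, which allows up to 0.158 RPKM in the parent. These limits, too, take a 0 as a count of reads and not as a failed estimate. SLC6A12, a transporter of betaine and GABA, had 3, 7 and 7 reads. SLC6A16 had at least 4, 2 and 3 reads, SLC7A14 had 2, 1 and 2, and SLC38A11 had 10, 3 and 5. Of these genes only SLC1A2 had ratios with intervals above 1, at 2.21 (1.05 to 4.98) in subclone 1 and 2.42 (1.17 to 5.38) in subclone 2.

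The element through which ATF4 acts was looked for as the letters TGATGNAA on both strands, in windows from 250 bases before to 50 bases after the RefSeq gene starts. Of the 39 genes 31 had such a window, and 5 of them, or 16.1%, held a match in at least 1 window, beside 4.46% of all 27305 genes in the table. The 5 were SLC1A4, SLC1A5, SLC38A1, SLC3A2 and SLC7A1. A match is only a description of letters. These stretches are printed because they show where the match lies near a listed start of a neutral or cationic carrier gene, with the matched bases in capitals. SLC1A5 had 3 windows, SLC1A4 had 2 and SLC7A1 had 1, and each gene held a match in 1 window, from which its stretch is taken. Which start these cells use was not examined. Relative to the start of that window, the match lay before it in SLC1A5 and ended on its first base in SLC1A4. In SLC7A1 it lay wholly after the start. They are chr19:46784825-46784954 on the minus strand for SLC1A5, chr2:64989299-64989408 on the plus strand for SLC1A4 and chr13:29595669-29595768 on the minus strand for SLC7A1, all GRCh38.p14. In SLC1A4 the letters are read on the opposite strand.
SLC1A5: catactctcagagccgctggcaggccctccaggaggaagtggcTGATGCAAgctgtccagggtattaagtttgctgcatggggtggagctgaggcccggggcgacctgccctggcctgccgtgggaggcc
SLC1A4: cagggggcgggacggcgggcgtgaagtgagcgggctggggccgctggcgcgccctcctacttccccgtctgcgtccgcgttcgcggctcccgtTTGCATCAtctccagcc
SLC7A1: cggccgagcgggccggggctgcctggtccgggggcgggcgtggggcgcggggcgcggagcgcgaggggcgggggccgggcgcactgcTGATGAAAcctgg
In subclone 1 the log2 ratios over the parent of the 5 genes were -0.17 for SLC1A5, 0.32 for SLC1A4, -0.48 for SLC38A1, -0.16 for SLC3A2 and -0.64 for SLC7A1, and in subclone 2 they were -0.02, 0.25, -0.18, -0.16 and -0.29.

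Genes that act with the transporters were followed in 7 lists. Of all 11370 genes with a mean of at least 1 RPKM, 4.9% were at least 2-fold higher and 1.82% lower in subclone 1 over the parent. In subclone 2 these shares were 5.33% and 2.16%. The counts of the lists stand beside these shares and were not tested. Of 22 genes of the ATF4 response, 20 had a mean of at least 1 RPKM. ATF4 itself was at 101 RPKM in the parent, 117 RPKM in subclone 1 and 145 RPKM in subclone 2. In subclone 1 against the parent, 2 of the 20 were at least 2-fold higher and 1 lower. DDIT4, an inhibitor of mTORC1, had a log2 ratio of 1.32 and NUPR1, a stress regulator, 1.01, while PHGDH, the first enzyme of serine synthesis, had -2.16. Short of 2-fold, the list went both ways in subclone 1. The lowest were PSAT1 at -0.97, ASNS at -0.93 and TRIB3 at -0.82, and the highest STC2 at 0.54, ATF3 at 0.39 and PSPH at 0.28. In subclone 2, DDIT4 at 1.11 and ATF3 at 1.62 were at least 2-fold higher and PHGDH at -1.15 was lower. Reads of ATF3 could not be recovered, so its ratios have no interval. The list median was -0.06 in subclone 1 and 0.10 in subclone 2, against 0.00 and 0.04 over all genes. PHGDH was at 14.8 RPKM in the parent, 3.22 RPKM in subclone 1 and 6.60 RPKM in subclone 2, the same order as SLC7A2. MTHFD2 and PYCR1, mitochondrial enzymes that dividing cells commonly transcribe, were at or under 0.21 RPKM in every library, so that a value near 0 in these files can also be a failed estimate.

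All 7 genes of glutathione synthesis and use were above the filter. GGT1, which splits extracellular glutathione, was at least 2-fold higher in both subclones, at 8.92 and 9.23 RPKM against 3.21 RPKM in the parent. The other 6 were within 2-fold, and the regulatory subunit GCLM had log2 ratios of -0.70 and -0.66. The list median was -0.19 in subclone 1 and -0.18 in subclone 2. Of 24 listed genes for amino acid sensing by mTORC1, all above the filter, 1 was at least 2-fold different in each subclone. This was CASTOR1, a cytosolic arginine sensor listed under its older symbol GATSL3. It was at 0.407 RPKM in the parent, 2.51 RPKM in subclone 1 and 1.80 RPKM in subclone 2, from 3, 19 and 14 reads. The intervals of its ratios over the parent were wide, 1.82 to 32.5 in subclone 1 and 1.24 to 24.1 in subclone 2. The list medians were 0.07 and 0.05.

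Of the 6 genes for breakdown of branched-chain amino acids, BCAT1, the cytosolic transaminase, was the 1 beyond 2-fold. It was at 2.21 RPKM in the parent, 0.202 RPKM in subclone 1 (3 reads) and 0.918 RPKM in subclone 2, with log2 ratios over the parent of -2.94 and -1.18. The other 5 had log2 ratios between -0.20 and 0.45. None of the 8 glutamine and glutamate enzymes above the filter was beyond 2-fold, with list medians of -0.17 and -0.04. Of 10 further amino acid and peptide carriers above the filter, SLC15A1 (PEPT1), an intestinal peptide transporter, was higher in both subclones, at 4.28 and 4.24 RPKM against 0.709 RPKM in the parent. SLC15A3, a lysosomal peptide and histidine carrier, was at 0.522 RPKM in the parent, 1.12 RPKM in subclone 1 and 1.88 RPKM in subclone 2, from 5, 11 and 19 reads. Its log2 ratios over the parent were 0.97 and 1.67, and the interval of the ratio between the subclones held 1 (0.762 to 3.92). Of 5 partners and regulators above the filter, KEAP1, the repressor of NRF2, was at least 2-fold lower in subclone 2. It was at 1.46 RPKM there against 3.33 RPKM in the parent. With 6 and 13 recovered reads, the interval of the ratio held 1 (0.137 to 1.24). These reads may be understated and the interval too wide. MYC, which drives several amino acid transporter genes, was at 88.3 RPKM, 54.7 RPKM and 54.4 RPKM. Beyond 2-fold between the subclones, ATF3, PHGDH and BCAT1 were higher in subclone 2, beside 1.42% of all genes.

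**Figure D5:**
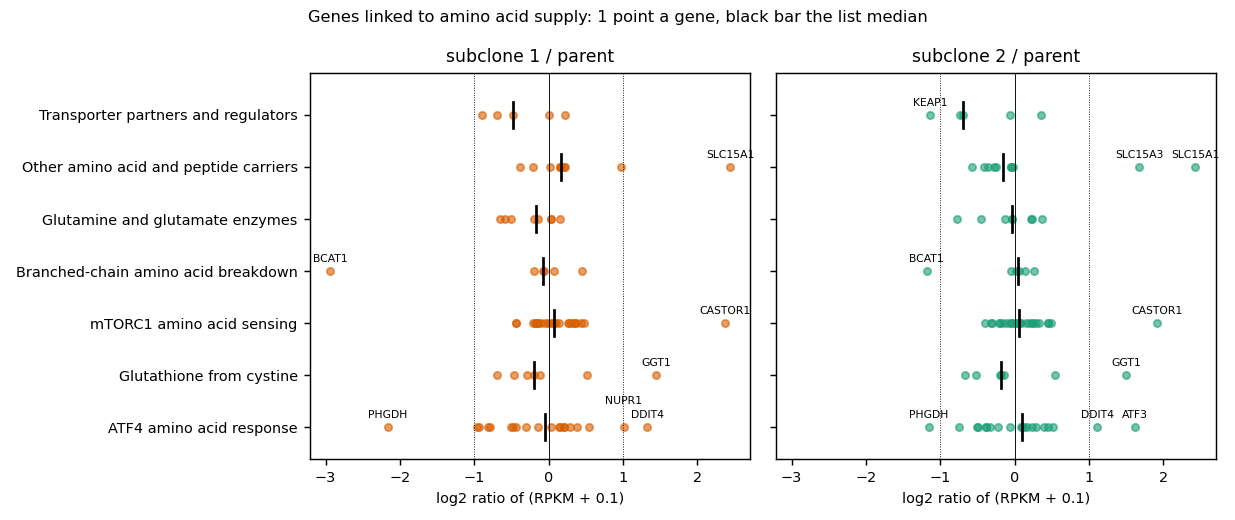
Log2 ratios of (RPKM + 0.1) over the parent for the genes of the 7 lists with a mean of at least 1 RPKM, 1 point for each gene, with a black bar at each list median and dotted lines at 2-fold. Genes beyond 2-fold are named, and the lowest and highest in subclone 1 are BCAT1 at -2.94 and SLC15A1 at 2.44.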

How the data were processed

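RNA of 3 cell lines, 1 library each, had been extracted with Trizol and sequenced from Illumina TruSeq libraries. The authors deposited RPKM values per gene for each library. The submitters' processing notes name genome build hg19, and the aligner, counter, annotation and strand setting are not given in the sources used here. Genes absent from a library were taken as 0. Whole reads were recovered from RPKM, which is reads divided by gene length and library total. The totals were those for which 8720 low values shared a common step, and each gene received the smallest whole numbers that fitted a GENCODE transcript length. Of 2000 genes, 74.6% had a length within 10% of a transcript, against 50.4% with doubled totals. Reads with a shared divisor can be understated, which widens intervals and can leave genes out of the counts by interval. Intervals are exact at 95% (Poisson for RPKM, Clopper-Pearson for ratios), and a count of 0 was taken to allow 3 reads. That limit does not hold where a 0 is a failed estimate. Reads copied from 1 molecule are not told apart. Log2 ratios used a pseudocount of 0.1, which understates changes of low genes, and 11370 genes with a mean of at least 1 RPKM, 11146 of them with reads. Ratios of totals, gene lengths and 2-fold calls were tested on simulated data, where most gene lengths came back, but not every one.

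With 1 library per line, groups were compared as ratios with no test. Values are given in full for transporters at least 2-fold different, the 12 of highest mean and a fixed list, and for up to 4 genes beyond 2-fold per linked list. ATF4, PSAT1, ASNS, TRIB3, STC2, PSPH, GCLM, MYC, MTHFD2 and PYCR1 were named after their values were seen. Members and lists were chosen with earlier results of these data known. Alternatives changed the pseudocount, the filter and the scaling. Gene order and promoters came from RefSeq (GRCh38.p14). Python 3.11.15, numpy 2.4.6, pandas 2.3.3, scipy 1.17.1 and matplotlib 3.10.9 were used.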

Additional observations from a re-analysis of the deposited data

Results flagged for a closer look

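Of the 28 genes with a mean of at least 1 RPKM, 3 had log2 ratios over the parent of opposite sign in the subclones, with a counting interval between the subclones that excluded 1, beside 6.36% of all 11146 genes with reads. These differences between cell lines were not tested. The log2 ratio of subclone 2 to subclone 1 was -0.64 for SLC38A7, with 0.25 in subclone 1 and -0.39 in subclone 2 over the parent. For SLC6A9 it was 1.17, with -0.68 and 0.49 over the parent. For SLC7A6 it was 0.41, with -0.21 and 0.20 over the parent. None of the ratios of these 3 genes over the parent had an interval without 1.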

How the results depend on the processing

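Counts of genes beyond 2-fold moved mainly with the filter and the pseudocount, by construction. With a mean of at least 5 RPKM, which leaves 20 genes, 1 gene was higher and 0 lower in subclone 1, 1 higher and 0 lower in subclone 2, and 0 higher in subclone 2 than in subclone 1. With no filter, 4 genes lay below the parent in subclone 2, and 1 lay below subclone 1. With a pseudocount of 1, subclone 2 had 1 gene below the parent and 1 above subclone 1. Of 69 such counts and medians under the alternatives, 60 stayed within 1.5 times the reported count or within the range set for a median. That range ran from the median lower limit to the median upper limit of the single genes. It is not an interval of the median itself, and a median could leave it only by a large shift. Requiring also an interval without 1, an alternative chosen after seeing the data, changed no count. Of 390 log2 ratios of 26 named genes, 371 stayed within their counting interval or had none, and 19 moved outside it. Those with no interval were SLC1A1 and SLC38A4 between the subclones, where neither library had a read. No ratio whose reported interval excluded 1 changed sign. With division by ACTB, ratios whose interval held 1 did, such as SLC7A5 in subclone 1 over the parent, from 0.03 to -0.11, and SLC6A8 between the subclones, from -0.01 to 0.12. Division by ACTB shifted the median of all genes from 0.00 to -0.13 in subclone 1 over the parent and from 0.03 to 0.16 between the subclones, and the transporter medians from -0.19 to -0.32 and from 0.18 to 0.31. It moved the share of higher genes among all beyond 2-fold from 72.9% to 57.6% and from 50.5% to 64.8%. With it, SLC3A2 moved from -0.16 to -0.29 and SLC1A5 from -0.17 to -0.30 in subclone 1 over the parent. No paired analysis was possible because each line has 1 library, and no library could be left out. Depth limits the genes with few reads, such as the 6 reads of SLC7A9 in the parent.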
